A study of Homo sapiens with 12 samples.

Results

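RNA-seq values of 8 enzymes that make nonessential amino acids from glutamate, or that handle the carbon linked to them, were examined in Hs 578T cells deprived of cystine. The genes were ASNS, GPT2, PCK2, GOT1, GLUL, PYCR1, ALDH18A1 and BCAT1. They were listed by name for their function, but with earlier results of these data known. All 8 were found among the 55765 gene symbols of the count tables. Hs 578T is a triple-negative breast cancer line. The cells had been transduced with lentivirus for the expression of either GFP (GFP cells) or full-length NRF2 (NRF2 cells), and the study asked how the 2 populations respond to loss of cystine (Cyss), the oxidized form of cysteine that cells take up. Both populations were held for 8 h in DMEM with serum, 0.2 mM methionine and 2 mM glutamine. The medium with Cyss held 0.8 mM l-cystine and the medium without Cyss had none added. Each of the 4 groups (GFP with Cyss, GFP without Cyss, NRF2 with Cyss, NRF2 without Cyss) had 3 libraries. The sample descriptions give no clone for either population and do not say whether the 3 libraries of a group came from separate cultures, so the p-values measure only the spread between these libraries. The libraries are of bulk RNA, in which a change in the number of cells of some kind and a change in RNA per cell cannot be told apart.

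Asparagine synthetase (ASNS) moves the amide group of glutamine onto aspartate, and the cytosolic aspartate aminotransferase GOT1 makes or uses that aspartate. GPT2 (mitochondrial alanine aminotransferase) and BCAT1 (cytosolic branched-chain aminotransferase) exchange amino groups between glutamate and alanine or the branched-chain amino acids, while PCK2 turns mitochondrial oxaloacetate into phosphoenolpyruvate (PEP). ALDH18A1 and PYCR1 catalyse the first and the last step from glutamate to proline, and GLUL makes glutamine from glutamate and ammonia. When an amino acid runs short, uncharged tRNA activates the kinase GCN2 (EIF2AK4), translation of the transcription factor ATF4 rises, and ATF4 with partners of the C/EBP family binds composite elements in its target genes, of which ASNS is a textbook example. NRF2, encoded by NFE2L2, is a transcription factor of the oxidative stress response that binds antioxidant response elements.

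Promoter sequences of RefSeq (GRCh38.p14, from 250 bases before to 50 bases after each start) were at hand for 6 of the 8 genes, with 12 promoters in all. GPT2 and PYCR1 had no entry. The upstream 250 bases of 3 genes that rose without Cyss are shown, all 5′ to 3′ on the strand of the gene, with matches to the C/EBP-ATF composite TGATGNAA in capitals. ASNS is read from chr7:97872409-97872658 on the minus strand, GOT1 from chr10:99430625-99430874 on the minus strand and PCK2 from chr14:24094061-24094310 on the plus strand. For BCAT1, which has several starts, only the 30 bases around its match are given, chr12:24949131-24949160 on the minus strand.
ASNS: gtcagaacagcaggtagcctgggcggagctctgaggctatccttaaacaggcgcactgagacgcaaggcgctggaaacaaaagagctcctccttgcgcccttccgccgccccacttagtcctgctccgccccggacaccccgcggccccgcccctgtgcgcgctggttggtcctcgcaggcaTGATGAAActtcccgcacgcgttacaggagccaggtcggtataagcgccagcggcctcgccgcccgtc
GOT1: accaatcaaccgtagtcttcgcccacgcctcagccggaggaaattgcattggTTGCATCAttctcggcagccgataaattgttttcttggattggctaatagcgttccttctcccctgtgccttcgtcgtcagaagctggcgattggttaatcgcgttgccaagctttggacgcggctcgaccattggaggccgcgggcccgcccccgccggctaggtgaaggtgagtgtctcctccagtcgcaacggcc
PCK2: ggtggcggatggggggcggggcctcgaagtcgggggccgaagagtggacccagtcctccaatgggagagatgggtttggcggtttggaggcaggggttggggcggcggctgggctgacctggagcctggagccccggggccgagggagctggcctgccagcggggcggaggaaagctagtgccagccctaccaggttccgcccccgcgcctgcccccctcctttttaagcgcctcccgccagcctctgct
BCAT1: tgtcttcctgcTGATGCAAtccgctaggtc

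Both strands of all 12 promoters were searched. The ASNS match lies 68 to 61 bases before the start, the GOT1 match 198 to 191 bases before it on the opposite strand (its capitals are therefore the reverse complement of the motif), and the BCAT1 match 48 to 41 bases before 1 of its 5 starts. Of the 2 ASNS promoters listed, only the one shown held the motif. Thus 3 of the 12 promoters held a match, against 3.62% of all 35116 promoters searched, and the window of PCK2 did not contain these letters. The 12 promoters belong to 6 genes and are not independent of each other. By gene, 3 of the 6 held a match, against 4.46% of all 27305 genes. The antioxidant response element core TGACNNNGC was found in 0 of the 12 promoters, against 13.3% of all promoters. These matches describe the sequence alone, and binding was not measured.

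The 12 libraries had between 27334061 and 44734611 reads on genes. Values are counts-per-million (CPM), scaled by TMM over the 12 libraries, and a gene was called as rising or falling when its adjusted p was under 0.1 and its log2 fold change (log2FC) was above 0.32 in size. NFE2L2 itself was at 109 to 114 CPM in GFP cells with Cyss and 196 to 207 CPM in NRF2 cells with Cyss, and at 134 to 139 and 220 to 250 CPM without Cyss, so that every NRF2 library lay above every GFP library. Of 8 epithelial markers, 6 (EPCAM, CDH1, KRT19, CLDN3, CLDN4 and CLDN7) stayed under 1 CPM in every library of this line, which is labelled an epithelial tumour line, whereas 5 mesenchymal markers summed to 33093 to 36258 CPM. The summed epithelial markers were at 33.3 to 37.5 CPM with and 40.1 to 50.6 CPM without Cyss in GFP cells, and at 28.0 to 31.3 and 39.8 to 47.4 CPM in NRF2 cells. Of this list KRT18 was the gene called higher in both. Of the mesenchymal markers, whose sum is mostly FN1, the transcription factor ZEB1 was called higher without Cyss in NRF2 cells (214 ± 0.442 to 277 ± 3.55 CPM, SD, n = 3 each, log2FC 0.37, edgeR adjusted p = 1.26e-05), but not in GFP cells (log2FC 0.02), and its interaction was called (0.35, edgeR adjusted p = 0.00171). The part of these shifts in the results was not tested. Replicate 3 of GFP without Cyss stood apart from its group on the first principal component of the 17674 genes tested over all libraries (-4.67 against 7.41 and 5.07), and results that it decides are given with and without it. On the second component, replicate 1 of NRF2 without Cyss stood apart from its group (7.86 against 0.924 and -0.794).

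Most of these enzymes were higher without Cyss in both populations. In GFP cells 6 of the 8 rose (ASNS, GPT2, PCK2, GOT1, PYCR1 and BCAT1), where 1.57% of all 17452 genes tested were called higher. None of the 8 fell, against 0.533% of all genes. In NRF2 cells 5 of the 8 rose (the same genes without PYCR1), where 6.81% of 17266 genes were called higher, and none fell, against 5.14%. ASNS, GPT2 and PCK2 rose between 2.23-fold and 2.76-fold, and the other called genes at most 1.51-fold. GLUL and ALDH18A1 were not called in either population. Because the 8 genes were chosen with earlier results of these data known, these counts are a description and not an independent test. The median log2FC of the 8 genes was 0.44 in GFP cells and 0.59 in NRF2 cells, beside 0.0015 and -0.01 for all genes tested. Adjusted p-values throughout come from the quasi-likelihood test of edgeR and are Benjamini-Hochberg values over all genes tested.

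ASNS (chromosome 7, 97480989 to 97501854 on the minus strand of GRCh37) had 90.4, 91.6 and 91.9 CPM in GFP cells with Cyss and 232, 233 and 244 CPM without. In NRF2 cells it had 88.1, 90.1 and 89.4 CPM with Cyss and 186, 203 and 214 CPM without. The libraries of the 2 media were far apart in both populations, and in each medium every NRF2 library lay below every GFP library. ASNS rose 2.59-fold in GFP cells (log2FC 1.37, standard error 0.0374, edgeR adjusted p = 1.21e-10). It rose 2.25-fold in NRF2 cells (log2FC 1.17, standard error 0.0527, edgeR adjusted p = 1.89e-09). The count is uncertain so far as reads were shared with ASNSP1, a pseudogene copied from ASNS, or with an lncRNA gene. That lncRNA gene covers 49.3% of the ASNS exon bases on the same strand in GENCODE, but its name is not among the counted symbols.

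GOT1 (chromosome 10, 101156627 to 101190381, minus strand), which makes cytosolic aspartate from oxaloacetate and glutamate, had smaller folds. It was at 47.9, 49.8 and 49.8 CPM with Cyss and 68.4, 69.6 and 73.1 CPM without in GFP cells. The NRF2 cells gave 43.0, 44.2 and 44.9 CPM with Cyss and 61.1, 67.3 and 71.0 CPM without. No library of one medium reached the range of the other within a population. The rise was 1.43-fold in GFP cells (log2FC 0.51, standard error 0.0428, edgeR adjusted p = 6.86e-06) and 1.51-fold in NRF2 cells (log2FC 0.59, standard error 0.0573, edgeR adjusted p = 2.87e-06).

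GPT2 (chromosome 16, 46918274 to 46965201, plus strand), which makes alanine and 2-oxoglutarate from pyruvate and glutamate, rose in both populations. GFP cells had 20.8, 21.7 and 21.0 CPM with Cyss and 48.5, 48.0 and 51.0 CPM without. NRF2 cells had 23.4, 22.1 and 21.6 CPM with Cyss and 52.4, 51.4 and 53.4 CPM without. The rise was 2.32-fold in GFP cells (log2FC 1.22, standard error 0.0486, edgeR adjusted p = 5.61e-09) and 2.34-fold in NRF2 cells (log2FC 1.23, standard error 0.0543, edgeR adjusted p = 1.74e-09). The difference between these responses was 0.01 on the log2 scale, with a 95% interval from -0.13 to 0.16.

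BCAT1 (chromosome 12, 24962958 to 25102035, minus strand), the cytosolic enzyme that starts branched-chain amino acid breakdown and forms glutamate, rose in both populations. Its CPM values in GFP cells were 100.8, 89.2 and 88.4 with Cyss and 118.7, 118.0 and 123.6 without. In NRF2 cells they were 96.7, 94.4 and 90.5 with Cyss and 158.6, 136.8 and 128.8 without. All NRF2 libraries without Cyss were above all GFP libraries without Cyss, with the widest spread of any group. The fold change was 1.29 in GFP cells (log2FC 0.37, standard error 0.0519, edgeR adjusted p = 0.00106) and 1.50 in NRF2 cells (log2FC 0.59, standard error 0.0666, edgeR adjusted p = 1.42e-05).

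PCK2 (chromosome 14, 24563262 to 24579807, plus strand), the mitochondrial PEP carboxykinase, had the largest fold change of the 8 genes in GFP cells. There it was at 19.1, 21.9 and 20.7 CPM with Cyss and 56.7, 58.3 and 55.5 CPM without. In NRF2 cells it was at 21.7, 20.2 and 21.2 CPM with Cyss and 47.0, 46.1 and 47.1 CPM without. The ranges of the 2 populations overlapped with Cyss and did not overlap without it. PCK2 rose 2.76-fold in GFP cells (log2FC 1.46, standard error 0.0548, edgeR adjusted p = 3.40e-09) and 2.23-fold in NRF2 cells (log2FC 1.15, standard error 0.0544, edgeR adjusted p = 2.79e-09).

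**Figure D1:**
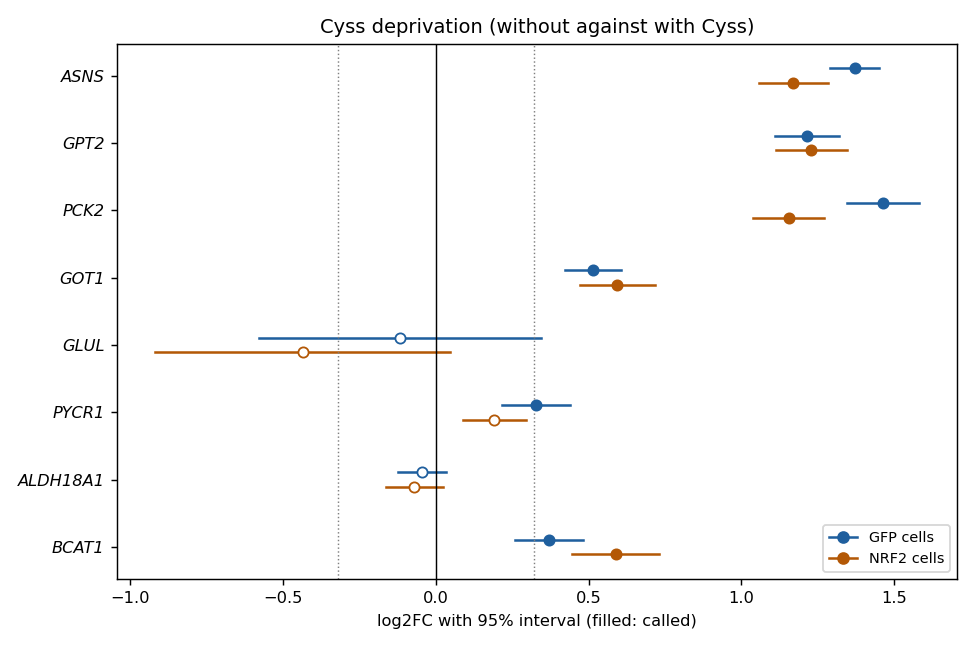
Log2FC without against with Cyss (horizontal axis) for the 8 genes in GFP cells (blue) and NRF2 cells (brown), with 95% intervals; filled points were called and dotted lines mark 0.32 in either direction. ASNS, GPT2 and PCK2 lie between 1.15 and 1.46, GOT1 and BCAT1 between 0.37 and 0.59, and ALDH18A1 at -0.05 and -0.07.

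The enzymes at the ends of the proline branch differed. PYCR1 (chromosome 17, 79890260 to 79900288, minus strand), which reduces pyrroline-5-carboxylate to proline in mitochondria, had 74.6, 84.1 and 75.1 CPM with Cyss and 93.4, 100.28 and 100.24 CPM without in GFP cells. In NRF2 cells it had 88.3, 82.3 and 83.9 CPM with Cyss and 93.8, 96.9 and 100.22 CPM without. The media did not overlap in either population. In GFP cells PYCR1 rose 1.26-fold, just past the threshold (log2FC 0.33, standard error 0.0516, edgeR adjusted p = 0.00273), and the call was lost without replicate 1 or 3 of GFP with Cyss (log2FC 0.30 each) or replicate 2 or 3 of GFP without Cyss (log2FC 0.31 each). In NRF2 cells its log2FC of 0.19 (standard error 0.0481, edgeR adjusted p = 0.0102) was under the fold threshold. In GENCODE 14.1% of its exon bases are shared with MYADML2 on the same strand. An lncRNA gene on the other strand shares 15.6% of them, and counting was without regard to strand. The name of that lncRNA gene is not among the counted symbols.

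ALDH18A1 (chromosome 10, 97365698 to 97416468, minus strand), which makes pyrroline-5-carboxylate from glutamate, was the steadiest of the 8 genes. It had 115.7, 118.9 and 115.5 CPM with Cyss and 113.6, 113.8 and 111.96 CPM without in GFP cells, and 116.8, 116.9 and 114.2 CPM with Cyss and 109.4, 110.5 and 111.8 CPM without in NRF2 cells. The libraries without Cyss were lower and did not overlap those with Cyss, but the differences did not pass the test. The log2FC was -0.05 in GFP cells (95% interval -0.13 to 0.03, edgeR adjusted p = 0.534) and -0.07 in NRF2 cells (95% interval -0.16 to 0.02, edgeR adjusted p = 0.274). Both intervals lie within the fold threshold.

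GLUL (chromosome 1, 182347233 to 182361341, minus strand), the glutamine synthetase, was barely detected in this line, with 18 to 43 reads in each library. Its CPM values in GFP cells were 0.814, 0.954 and 0.833 with Cyss and 0.923, 0.890 and 0.589 without. In NRF2 cells they were 1.05, 0.943 and 1.11 with Cyss and 0.760, 0.583 and 0.942 without. The media overlapped in GFP cells and were just separate in NRF2 cells. The log2FC was -0.12 in GFP cells (95% interval -0.58 to 0.34, edgeR adjusted p = 0.812) and -0.44 in NRF2 cells (95% interval -0.92 to 0.05, edgeR adjusted p = 0.189). These intervals are wide beside those of the other genes, whose reads per library were at least 597. Without replicate 3 of GFP without Cyss the log2FC in GFP cells was 0.06, and without replicate 3 of NRF2 without Cyss the log2FC in NRF2 cells was -0.62 and was called (edgeR adjusted p = 0.0853).

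Per kb of exon the order of the 8 genes changed with the medium. With Cyss in GFP cells ALDH18A1 was highest at 31.0 ± 0.514 CPM per kb (SD, n = 3), followed by PYCR1 at 27.0 ± 1.85, GOT1 at 20.3 ± 0.462 and ASNS at 18.7 ± 0.167. BCAT1 (8.13 ± 0.606), PCK2 (4.92 ± 0.338) and GPT2 (3.32 ± 0.0765) came next and GLUL was at 0.0686 ± 0.00603 CPM per kb. No neighbours in this order overlapped. Without Cyss ASNS came first, at 48.3 ± 1.38 CPM per kb (SD, n = 3), ahead of PYCR1 at 34.0 ± 1.37, ALDH18A1 at 30.1 ± 0.266 and GOT1 at 29.0 ± 1.01, and PCK2 (13.6 ± 0.337) passed BCAT1 (10.5 ± 0.270). GPT2 was at 7.73 ± 0.255 and GLUL at 0.0633 ± 0.0146 CPM per kb, and of the neighbours in this order only ALDH18A1 and GOT1 overlapped. In NRF2 cells with Cyss the order was that of GFP cells with Cyss, except that the mean of ASNS lay just above that of GOT1. These 2 genes, at 18.2 ± 0.211 and 18.2 ± 0.406 CPM per kb, overlapped, as did ALDH18A1 and PYCR1. In NRF2 cells without Cyss ASNS again led, at 41.0 ± 2.86 CPM per kb, and BCAT1 (12.4 ± 1.35) and PCK2 (11.2 ± 0.142) overlapped, as did ALDH18A1 and GOT1. The exon lengths are those of GENCODE 44 on GRCh37, not of the annotation used for counting.

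**Figure D2:**
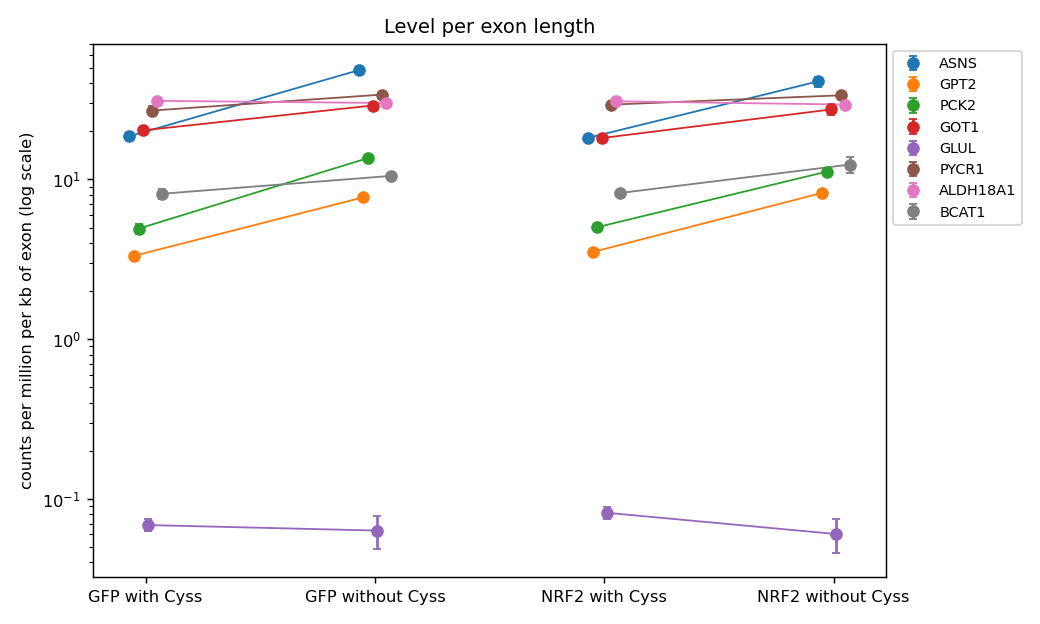
Mean level in counts-per-million per kb of exon (vertical axis, log scale) of the 8 genes in the 4 groups, with whiskers of 1 SD over 3 libraries and lines joining the media of one population. ASNS crosses PYCR1, ALDH18A1 and GOT1 without Cyss, and GLUL lies far below the others at 0.0603 to 0.0819.

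Exogenous NRF2 alone was compared with GFP in the same medium, which uses the same libraries as the comparisons of the media. With Cyss none of the 8 genes was called, where 1.36% of 17449 genes were called higher and 0.201% lower. At an unadjusted p under 0.05 there were 2 of the 8, GOT1 and PYCR1, against 3321 of all 17449 genes, and DESeq2's Wald test also called none. GOT1 was lower in every NRF2 library, with a log2FC of -0.16 (95% interval -0.25 to -0.07, edgeR adjusted p = 0.0524), under the fold threshold. ASNS was also lower in every NRF2 library, but narrowly (88.1 to 90.1 against 90.4 to 91.9 CPM). PYCR1 had a log2FC of 0.12 (95% interval 0.02 to 0.22, edgeR adjusted p = 0.189) with overlapping libraries. ASNS (log2FC -0.03, 95% interval -0.11 to 0.04), PCK2 (0.03, -0.10 to 0.16), GPT2 (0.08, -0.04 to 0.19), BCAT1 (0.02, -0.09 to 0.12) and ALDH18A1 (-0.01, -0.09 to 0.07) had intervals within 0.32 of 0. For GLUL the log2FC was 0.24, with an interval from -0.16 to 0.65.

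Without Cyss, again none of the 8 was called in NRF2 against GFP cells, where 5.98% of 17297 genes were called higher and 4.09% lower, and DESeq2's Wald test called none. An unadjusted p under 0.05 was reached by 3 genes, ASNS, PCK2 and BCAT1, against 5962 of all 17297 genes, and these 3 had adjusted p under 0.1 but log2FC under the fold threshold. PCK2 was 18.5% lower in NRF2 cells (log2FC -0.29, standard error 0.0479, edgeR adjusted p = 0.00174). ASNS was 15.8% lower (log2FC -0.25, standard error 0.0544, edgeR adjusted p = 0.00839), and BCAT1 was 1.17-fold higher (log2FC 0.22, standard error 0.0684, edgeR adjusted p = 0.0379). The libraries of the 2 populations did not overlap for these 3 genes, nor for GPT2 (higher) and ALDH18A1 (lower). How often this happened among all genes was not counted. GPT2 had a log2FC of 0.08, GOT1 of -0.09, ALDH18A1 of -0.05, PYCR1 of -0.03 and GLUL of -0.08, with adjusted p from edgeR of at least 0.283.

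Whether the response to Cyss loss differed between the populations was asked with an interaction term over 12 libraries, for which an adjusted p under 0.1 was enough for a call. The responses of ASNS and PCK2 were smaller in NRF2 cells, so that 2 of the 8 were called lower, where 6.13% of 17674 genes were called lower. None was called higher, against 8.97% of all genes, and DESeq2's Wald test called 2 lower and none higher too. For PCK2 the log2 difference was -0.31 (standard error 0.0751, 95% interval -0.47 to -0.15, edgeR adjusted p = 0.0157). The call held whichever of the 12 libraries was left out. For ASNS the difference was -0.20 (standard error 0.0652, 95% interval -0.34 to -0.06, edgeR adjusted p = 0.0608). The ASNS call was lost without replicate 1 of GFP with Cyss (adjusted p = 0.116), replicate 2 (0.109) or 3 (0.111) of GFP without Cyss, or replicate 2 (0.122) or 3 (0.124) of NRF2 with Cyss, while the value kept its sign. BCAT1 differed in the other direction by 0.22 (95% interval 0.03 to 0.41, edgeR adjusted p = 0.142) and was not called. Without replicate 3 of NRF2 without Cyss the BCAT1 value was 0.28 and was called (edgeR adjusted p = 0.0270). PYCR1 was called lower without replicate 2 of GFP with Cyss, at -0.19 (edgeR adjusted p = 0.0749), and with scaling by library size, also at -0.19 (edgeR adjusted p = 0.0985). For PYCR1 (-0.14, -0.29 to 0.02), GOT1 (0.08, -0.07 to 0.23), ALDH18A1 (-0.02, -0.13 to 0.08) and GLUL (-0.32, -0.96 to 0.33) the 95% intervals of the difference included 0.

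**Figure D3:**
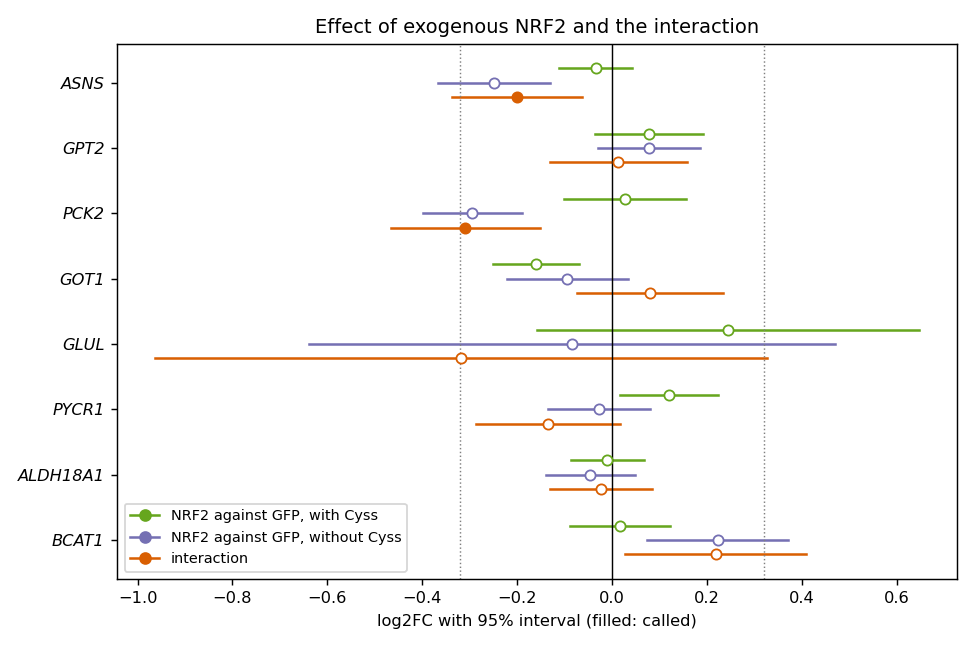
Log2FC of NRF2 against GFP cells with Cyss (green) and without Cyss (violet), and the log2 difference between their responses to Cyss deprivation (orange), for the 8 genes, with 95% intervals. Filled points were called; the dotted lines at 0.32 in either direction apply to the green and violet points only, and the called differences are those of ASNS at -0.20 and PCK2 at -0.31.

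Neighbouring enzymes of the same pathways were examined next. Of 31 further enzymes and carriers of aspartate, glutamate, proline, alanine, branched-chain and PEP metabolism, 27 were expressed enough to be tested and 4 (ASRGL1, PRODH, PCK1 and FBP1) were not. In GFP cells PSAT1 rose and 26 were not called, with a median log2FC of -0.00051, where 1.57% of all genes were called higher. In NRF2 cells PSAT1 rose and 26 were not called, with a median log2FC of 0.02, where 6.81% of all genes were called higher. PSAT1, the aminotransferase of serine synthesis, which also uses glutamate, had 123.6, 122.3 and 119.0 CPM with Cyss and 267.8, 269.5 and 267.0 CPM without in GFP cells (log2FC 1.14, standard error 0.0357, edgeR adjusted p = 5.49e-10). In NRF2 cells it went from 121.0, 119.2 and 113.1 to 215.0, 233.7 and 231.1 CPM (log2FC 0.94, standard error 0.0488, edgeR adjusted p = 5.28e-09). The mitochondrial partner of GOT1 (GOT2), the partner of BCAT1 (BCAT2), PYCRL and the enzymes of branched-chain keto acid oxidation were not called with Cyss loss in either population. ME1 was lower without Cyss in both (log2FC -0.24 in GFP and -0.21 in NRF2 cells, edgeR adjusted p = 0.0159 and 0.0316), under the fold threshold.

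Between the populations, GPT, the cytosolic alanine aminotransferase, was the only one of the 27 called, higher in NRF2 cells with Cyss (1.23 ± 0.247 against 1.93 ± 0.214 CPM, SD, n = 3 each, log2FC 0.64, edgeR adjusted p = 0.0560), and this call was lost with DESeq2's Wald test and without any 1 of 5 libraries, replicate 2 of GFP with Cyss being the exception. None was called without Cyss, where 10 of the 27 and 5962 of all 17297 genes had an unadjusted p under 0.05. Several others had an adjusted p under 0.1 with a log2FC under the fold threshold. Among them ME1 was higher in NRF2 cells with Cyss (log2FC 0.23, edgeR adjusted p = 0.00551) and without (0.25, edgeR adjusted p = 0.0268). PKM was higher in both media too (0.13 and 0.22, edgeR adjusted p = 0.0365 and 0.00477). PSAT1 and MDH1 were lower without Cyss (-0.26 each, edgeR adjusted p = 0.00311 and 0.00838). In the interaction PSAT1 was called lower (-0.20, edgeR adjusted p = 0.0434), like ASNS and PCK2, as were PYCRL, a cytosolic pyrroline-5-carboxylate reductase (-0.23, adjusted p = 0.0778), and MDH1, the cytosolic malate dehydrogenase (-0.19, adjusted p = 0.0992). The PSAT1 call was lost without replicate 3 of GFP with Cyss, 2 of GFP without Cyss or 1 of NRF2 with Cyss (adjusted p up to 0.105). PYCRL and MDH1 were less firm, with adjusted p up to 0.207 and 0.199 without a library, and MDH1 lost its call under 16 of 21 other settings.

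Regulators of the amino acid response were set beside the enzymes. Only their RNA was measured in these libraries, not their protein, translation or kinase activity. All 11 were tested, and 6 rose in GFP cells and 5 in NRF2 cells, with median log2FC of 0.35 and 0.32, where 1.57% and 6.81% of all genes were called higher. ATF4, the factor that this response turns on, had 217.7, 229.1 and 218.7 CPM with Cyss and 390.1, 400.1 and 400.7 CPM without in GFP cells (log2FC 0.84, standard error 0.0357, edgeR adjusted p = 1.04e-08). In NRF2 cells it had 203.6, 215.3 and 222.9 CPM with Cyss and 317.5, 354.6 and 387.6 CPM without (log2FC 0.72, standard error 0.0624, edgeR adjusted p = 9.01e-07). Its interaction was not called (-0.12, 95% interval -0.28 to 0.05, edgeR adjusted p = 0.385). In the medium without Cyss, all ATF4 values of the NRF2 libraries fell below those of the GFP libraries. The log2FC of NRF2 against GFP cells there was -0.18 (edgeR adjusted p = 0.0573), under the fold threshold. With Cyss this log2FC was -0.05 (edgeR adjusted p = 0.502), with overlapping libraries. ATF3, a stress-induced factor of the same family, had a log2FC of 1.22 in GFP and 1.12 in NRF2 cells. CEBPG, a C/EBP partner of ATF4, had 0.83 and 0.85, and TRIB3, a pseudokinase induced by ATF4, 1.03 and 0.84. DDIT3 (CHOP, a factor of stress-induced cell death) rose in GFP cells (log2FC 0.66), and in NRF2 cells its log2FC of 0.316 (edgeR adjusted p = 0.00729) was just under the fold threshold. Its interaction was -0.35 (edgeR adjusted p = 0.0467), which was not called without replicate 1 or 3 of GFP with Cyss, 2 of GFP without Cyss, or 1 or 3 of NRF2 with Cyss (adjusted p up to 0.123). CEBPB, another C/EBP factor, rose by 0.35 in GFP cells and by 0.74 in NRF2 cells on the log2 scale, with an interaction of 0.39 (edgeR adjusted p = 0.0113). Without Cyss, DDIT3 was called lower (log2FC -0.36, but -0.30 and not called without replicate 1 of NRF2 without Cyss) and CEBPB higher (log2FC 0.42) in NRF2 than in GFP cells. The GFP call of CEBPB was lost without replicate 2 of GFP with Cyss (log2FC 0.3199) or replicate 3 of GFP without Cyss (log2FC 0.29). The 4 eIF2 kinases (EIF2AK1, EIF2AK2, EIF2AK3 and EIF2AK4) and ATF5 were not called in any comparison. With Cyss loss all of them had negative log2FC in both populations, some with an adjusted p under 0.1 but under the fold threshold. ATF5 was at -0.17 in GFP and -0.15 in NRF2 cells (edgeR adjusted p = 0.0682 and 0.0304). EIF2AK2 was at -0.21 in GFP cells and EIF2AK3 at -0.17 in NRF2 cells (edgeR adjusted p = 0.0726 and 0.0558).

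The genes with the most similar pattern over the 12 libraries were found by the root mean square difference of centred log2 CPM among 13931 genes, as a description only. For ASNS the nearest was VLDLR, a lipoprotein receptor (0.0593 on the log2 scale), then PCK2 (0.0751), its own pseudogene ASNSP1 (0.116), PSAT1 (0.121) and MTHFD2, an enzyme of mitochondrial folate metabolism (0.129). The nearest to PCK2 was ASNS, at 0.0751, and the nearest to GPT2 was MTHFD2, at 0.106. GOT1 lay nearest to XBP1, a factor of the unfolded protein response (0.0481), PYCR1 to PPM1M, a phosphatase (0.0471), and BCAT1 to PPP1R15B, a regulatory subunit of the phosphatase that acts on eIF2 (0.0454). Among the 8 genes ASNS and PCK2 were closest, ASNS and GPT2 differed by 0.136 and GPT2 and PCK2 by 0.147, and the widest difference was between PCK2 and GLUL (0.754). The 12 libraries are shared by all these values.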

How the data were processed

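Libraries were made by the authors with a TruSeq mRNA kit and sequenced single end. The deposited values are raw counts per gene symbol, which the authors obtained by mapping to hg19 with TopHat2 2.1.0 and counting reads on exons with HTSeq 0.11.2 without regard to strand; the version of the counting annotation is not given in the sources used here. Each table lists 55765 symbols and 5 HTSeq counters, which held 15.9 to 17.1% of the reads and were left out together with 523 genes named as rRNA.

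For each pair of groups, genes whose TMM-normalized count averaged 10 or more in 1 of the groups were tested with edgeR 4.0.16 (R 4.3.3) by the quasi-likelihood test with Benjamini-Hochberg adjustment over all genes tested. Calls required an adjusted p under 0.1 together with an absolute log2FC over 0.32, and for the interaction, fitted on 12 libraries, an adjusted p under 0.1. Standard errors were derived from the quasi-likelihood test, as the size of the fitted log2FC divided by the square root of its F statistic. The 95% intervals were built from these standard errors with a t distribution. CPM means and SDs are over 3 libraries. No replicate block was fitted. Pairs of replicates differed by more than sampling noise (chi-square per degree of freedom 2.22 to 13.0), so none was a repeated deposit. The highest value was that of replicates 1 and 3 of NRF2 without Cyss. The fit was tested on simulated data.

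The 8 genes, the 31 neighbouring enzymes, the 11 regulators and the markers were chosen with earlier results of these data known. Of the neighbouring enzymes first listed, 2 are not reported here and are not in the counts. All 8 genes were described, any listed gene that was called could be named, and the nearest genes by pattern (log2 CPM with a prior of 0.5, mean of at least 50 reads in some group) were named for each called member, 5 for ASNS. Positions and exon lengths are from GENCODE 44 on GRCh37 and promoters from RefSeq GRCh38.p14. Alternatives were DESeq2 1.42.0 size factors and Wald test, scaling by library size, other filters and thresholds, rRNA genes kept, 12 libraries in the fit, the replicate block, each library left out and, added after seeing the data, TMM over all genes before the filter.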

Additional observations from a re-analysis of the deposited data

Results flagged for a closer look

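The responses of ASNS and PCK2 to Cyss deprivation differed between the populations by the test of the difference itself. The log2 difference of NRF2 from GFP cells was -0.20 for ASNS and -0.31 for PCK2 (edgeR quasi-likelihood interaction, Benjamini-Hochberg adjusted p = 0.0608 and 0.0157). The PCK2 call held without any 1 of the 12 libraries, whereas the ASNS call was lost on leaving out any 1 of 5 libraries, among them replicate 3 of GFP without Cyss (adjusted p = 0.111). ASNS went from 91.3 ± 0.817 to 236 ± 6.78 CPM in GFP cells and from 89.2 ± 1.03 to 201 ± 14.0 CPM in NRF2 cells (SD, n = 3 each). PCK2 went from 20.5 ± 1.41 to 56.8 ± 1.41 CPM in GFP cells and from 21.0 ± 0.764 to 46.7 ± 0.593 CPM in NRF2 cells (SD, n = 3 each).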

How the results depend on the processing

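Scaling, filter, tool and left-out libraries did not end the calls of ASNS, GPT2, PCK2, GOT1 and BCAT1 with Cyss loss in either population; ASNS ranged from 1.35 to 1.38 and from 1.11 to 1.22 (log2FC, GFP and NRF2 cells). PYCR1 in GFP cells was lost without a filter and with TMM over all genes (0.3153 each). With no fold threshold, GOT1 was called lower with Cyss (1 gene in NRF2 against GFP cells), and without Cyss 1 gene was called higher (BCAT1) and 2 lower (ASNS and PCK2). Scaling by library size called 1 lower there (PCK2, -0.33), called 3 of the 8 lower in the interaction (PYCR1 at -0.188 besides ASNS and PCK2), turned the GPT2 interaction to -0.039 and changed the split of all called genes in NRF2 cells from 1176 higher and 887 lower to 938 and 1397, without Cyss from 1034 and 708 to 875 and 1000, and in the interaction from 1585 and 1084 to 1124 and 1979. In the interaction 1 gene was called higher without a filter (BCAT1), and 1 lower at an adjusted p under 0.05 (PCK2). The cause of these changes was not tested.

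Same-numbered replicates of the groups compared had correlations from -0.083 to 0.168, not all over 0.1 in any comparison. With 3 libraries in a group, these values cannot decide whether the numbers pair the libraries. The replicate block called 1 gene higher in the interaction (BCAT1, 0.21) and changed no other count of the 8 genes called. Only in NRF2 cells with and without Cyss did every library correlate best with its own number.

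With 1 library left out, the genes called lower in NRF2 cells numbered 0 to 1, and in the interaction 0 to 1 were higher and 1 to 3 lower. Uncalled values that changed sign were GLUL in GFP cells (-0.24 to 0.059), with Cyss in NRF2 against GFP cells PCK2 (-0.025 to 0.075), ALDH18A1 (-0.019 to 0.0025) and BCAT1 (-0.018 to 0.078), without Cyss GLUL (-0.27 to 0.080) and PYCR1 (-0.062 to 0.0027), and the GPT2 interaction (-0.016 to 0.041). Depth limits GLUL, with 18 to 43 reads per library.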
